A study of Mus musculus with 6 samples.

Results

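Levels of 10 primary granule genes were followed in single cells of mouse bone marrow: Mpo, Elane, Prtn3, Ctsg, Srgn, Serpinb1a, Cst7, Ms4a3, Nkg7 and Igsf6. They were chosen by symbol, as 10 of the 32285 genes counted, and each was found once. The cells were c-Kit-enriched bone marrow of BALB/c mice, 10 weeks old at harvest. Each of 3 pools was 1 library with 1 mouse of each group, so there were 9 mice and 3 per group. The non-tumor-bearing (NTB) mice had no treatment. The other mice bore 4T1, a mammary carcinoma line grown in the mammary gland, and were injected intraperitoneally each day for 2 weeks from when tumors could first be measured. The vehicle mice received DPBS, a buffered saline, and the BRQ mice received brequinar, an inhibitor of the pyrimidine synthesis enzyme DHODH, at 10 mg/kg. Vehicle and BRQ mice therefore shared the tumor, and no tumor-free mouse received BRQ. c-Kit enrichment used magnetic beads, and mature cells remained in the preparation, as the marker genes below show.

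Primary, or azurophil, granules are made at the promyelocyte stage, when granulocyte-monocyte progenitors (GMPs) commit to neutrophils. Transcription of their contents is a short wave: the mRNAs rise in GMPs and promyelocytes and fall when secondary granule genes such as Ltf and Camp are switched on, while the proteins stay stored in the mature neutrophil. Mpo encodes myeloperoxidase, which makes hypochlorous acid. Elane (neutrophil elastase), Prtn3 (proteinase 3) and Ctsg (cathepsin G) encode serine proteases of the same granules. Srgn encodes serglycin, the proteoglycan that packs such proteases. Serpinb1a encodes an inhibitor of neutrophil serine proteases, and Cst7 encodes cystatin F, an inhibitor of cysteine cathepsins. Ms4a3, Nkg7 and Igsf6 encode membrane proteins, and Ms4a3 is widely used as a marker of GMPs.

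All 10 are protein-coding genes, located here in the GENCODE annotation of GRCm38, and UMIs of a whole gene were counted. Elane (chromosome 10, 79886247 to 79888215) and Prtn3 (chromosome 10, 79874476 to 79883174) are neighbours on the plus strand. Srgn is also on chromosome 10 (62493833 to 62527451, minus strand). Mpo lies on chromosome 11 (87793581 to 87804413), Ctsg on chromosome 14 (56099881 to 56102574) and Cst7 on chromosome 2 (150570415 to 150578944). Nkg7 (43437073 to 43438249) and Igsf6 (121064067 to 121074572) lie on chromosome 7, Ms4a3 on chromosome 19 (11629496 to 11640851) and Serpinb1a on chromosome 13 (32842092 to 32851185). Serpinb1a has the near copy Serpinb1c beside it, so reads that fit both could not be assigned to it with certainty.

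The filters kept 32762 barcodes, of which 15966 were given to 1 mouse by their hashtag. The mice had between 382 (vehicle, pool 2) and 2780 (vehicle, pool 1) cells. Which cells belong to which mouse depends on the hashtag call: calling by ratios of hashtag counts (tag ratios) in place of HTODemux, the method used here, gave 1402 in place of 554 cells to the NTB mouse of pool 1, 905 in place of 2321 to the BRQ mouse of pool 2, 1034 in place of 2343 to that of pool 3, 647 in place of 1261 to the vehicle mouse of pool 3 and 629 in place of 382 to that of pool 2. Pairs of pools shared 38 to 48 barcode sequences. Cells were clustered without the 10 genes, and 17 of the 21 clusters were named from markers that include none of them. HSC/MPP-like cells, the stem and multipotent progenitors, were clusters 6 (led by Hlf and Ctla2a) and 11 (led by Cd34 and Fut8). Cluster 11 scored 0.554 for HSC/MPP markers and 0.540 for GMP markers, so it lies between these names. GMP-like cells were clusters 0, 1 and 7, neutrophil-like cells were clusters 2, 3 and 9, and monocyte/MDP-like cells, which include monocyte-dendritic progenitors, were cluster 4. Cluster 5, led by Fcnb and Lipg, scored 0.718 for GMP and 0.700 for neutrophil markers and stayed unnamed. Levels are CPM, the UMIs of a gene scaled to equal library totals, from UMIs summed over the cells of a class in a mouse. Fewer cells of a kind and less RNA per cell cannot be told apart inside such a sum.

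Along the span the genes formed a wave with a different end for each. The levels given next are means over mice in CPM, with SD, and clusters with under 10 cells of a mouse lack that mouse. Mpo stood at 932 ± 199 (n = 9) in cluster 6, 5469 ± 635 (n = 8) in cluster 11, 6552 ± 1599 (n = 9) in GMP-like cells and 3695 ± 554 (n = 9) in cluster 5. It was at 662 ± 175 (n = 9) in neutrophil-like cells. Thus most of the Mpo level of GMP-like cells was already there in cluster 11, and both ranges overlapped across mice. Elane was at 250.0 ± 92.3 (n = 9) in cluster 6, 4417 ± 849 (n = 8) in cluster 11, 10452 ± 1457 (n = 9) in GMP-like cells and 10029 ± 769.8 (n = 9) in cluster 5. The Elane levels of GMP-like cells and cluster 5 did not differ beyond their spread. Ctsg fell earlier, from 3135 ± 637 CPM in GMP-like cells to 1522 ± 653 in cluster 5 and 193 ± 92.0 in neutrophil-like cells (n = 9 each). Classes were found from the expression of the same cells, so these differences between classes are a description with no test.

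Serpinb1a and Igsf6 did not end with the wave. The elastase inhibitor gene Serpinb1a was at 589 ± 63.0 CPM in GMP-like cells, 1106 ± 132 in cluster 5 and 866 ± 154 in cluster 2, the neutrophil-like cluster led by Chil3, Camp and Ngp (n = 9 each). It was at 152 ± 56.9 CPM (n = 8) in cluster 3, the neutrophil-like cluster led by Wfdc17, Il1b and Steap4. Igsf6 was at 177 ± 10.5 CPM in GMP-like cells, 214 ± 20.7 in cluster 5 and 191 ± 17.7 in neutrophil-like cells (n = 9 each). Srgn was at 3633 ± 309 CPM (n = 9) in GMP-like cells, 457 ± 380.4 (n = 9) in cluster 2, 109.6 ± 31.0 (n = 8) in cluster 9 and 1924 ± 423 (n = 8) in cluster 3. Cells of cluster 3 held fewer UMIs, and counts per cell differed between mice. In the NTB mouse of pool 2, 305 cells of cluster 2 had 423 Srgn UMIs of 2422221, and 37 of cluster 3 had 128 of 62389. In the BRQ mouse of pool 1, 163 cells of cluster 2 had 682 of 1528979, and 245 of cluster 3 had 792 of 441481.

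**Figure D1:**
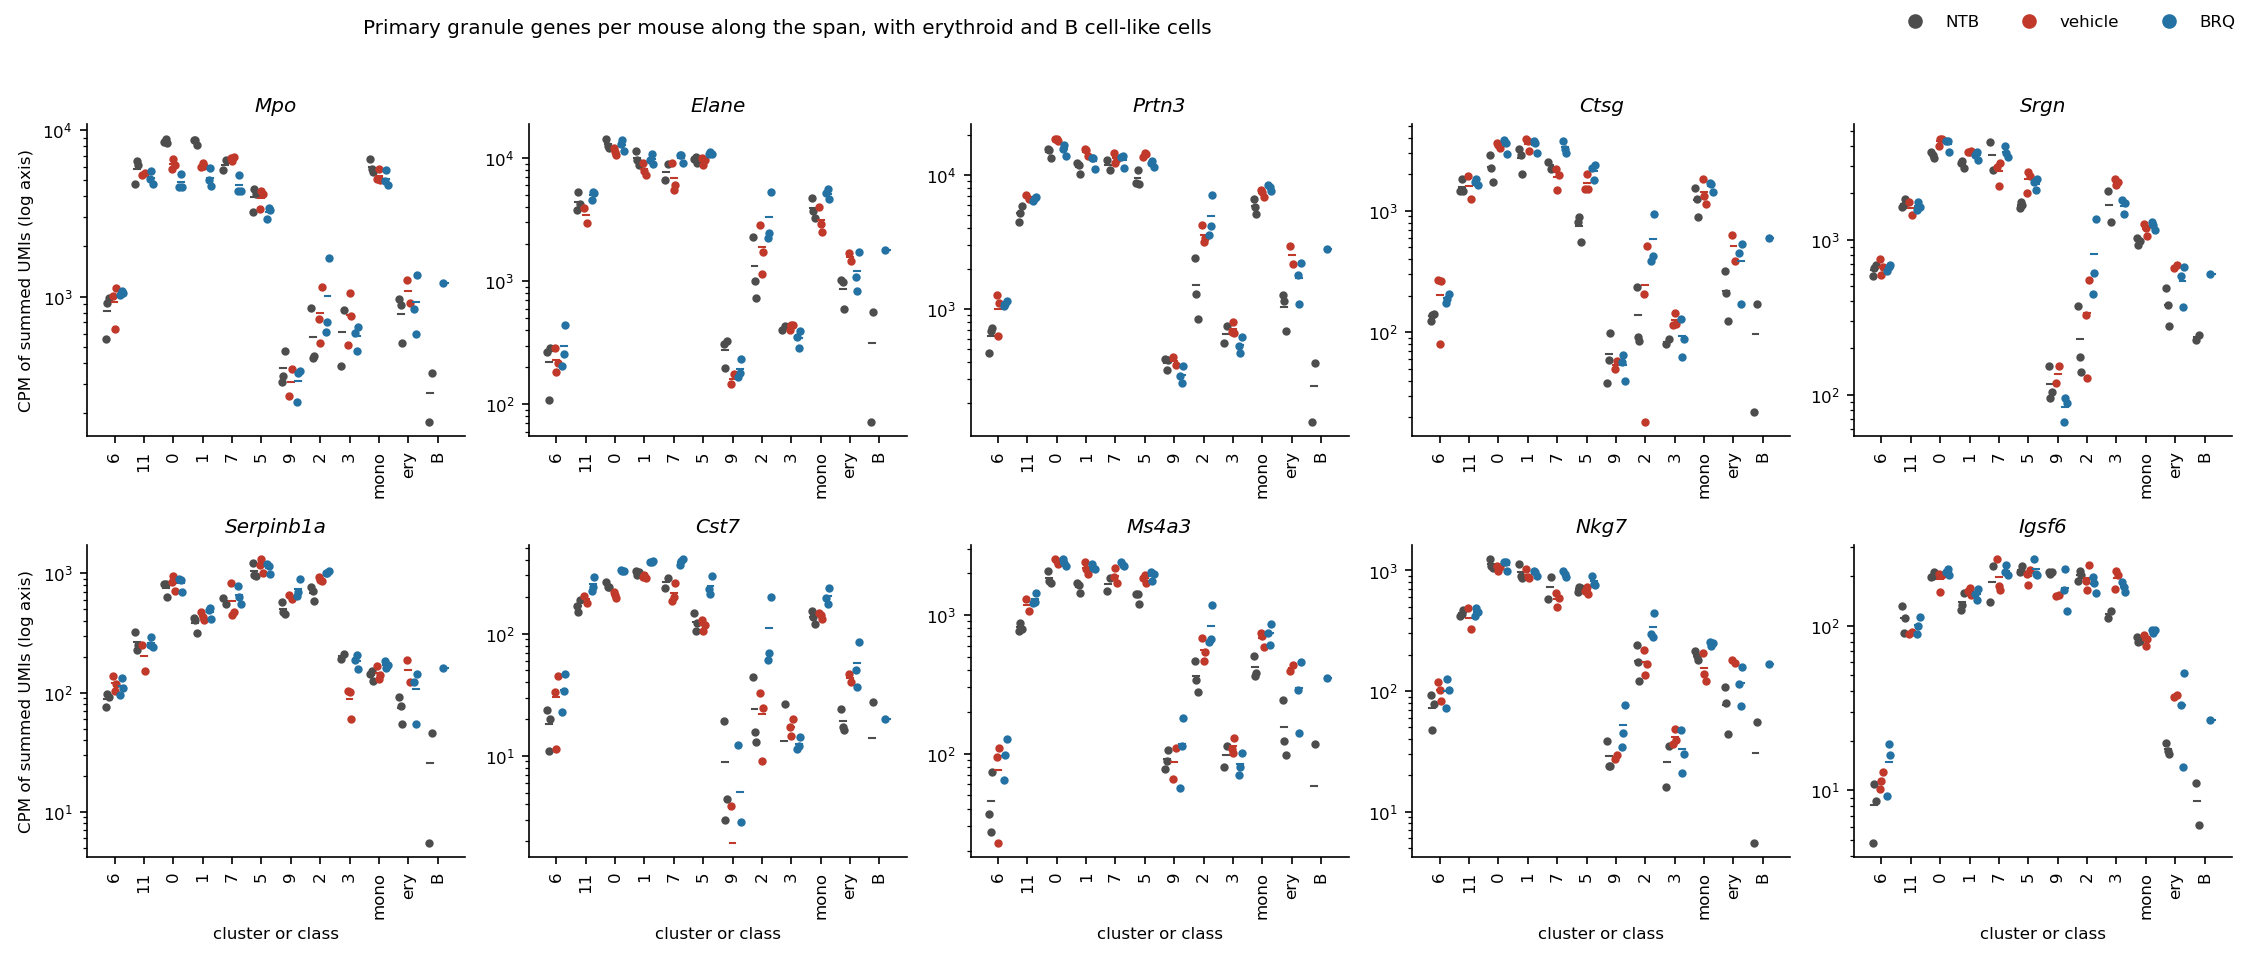
CPM of summed UMIs (log axis) of each gene in clusters of the span (6 and 11 HSC/MPP-like; 0, 1 and 7 GMP-like; 5 unnamed; 9, 2 and 3 neutrophil-like), in monocyte/MDP-like cells (mono) and in erythroid/MEP-like (ery) and B cell-like (B) cells. Points are mice with at least 10 cells, a point at 0 is not drawn, and bars are group means; over the clusters of each class, Mpo is at 6552 CPM in GMP-like and 662 in neutrophil-like cells and Igsf6 at 177 and 191.

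Erythroid/MEP-like and B cell-like cells, which should lack these genes, served as a guide to free RNA in the droplets. Relative to GMP-like cells of the same pool, erythroid/MEP-like cells held between 6.26% (Ctsg) and 9.30% (Serpinb1a) of the level, with the other 8 genes between. B cell-like cells held 7.39% (Nkg7) to 12.5% (Igsf6). The 10 genes thus lay in a narrow band in each of these classes. Neutrophil-like cells were inside or near that band for Mpo (8.52%) and Cst7 (7.54%). The part of free RNA in these class levels was not tested. By cluster and mouse, Cst7 was uneven within the class. In cluster 2 it was at 60.8, 69.8 and 201 CPM in the BRQ mice of pools 1 to 3, and at 9.13 to 43.9 in the other mice. It was at 26.3 CPM or less in cluster 3 and at 19.2 or less in cluster 9. Elane (9.97%) was above the erythroid/MEP-like band, and its level differed within the class: it was at 2194 ± 1375 CPM (n = 9) in cluster 2, 394 ± 52.6 (n = 8) in cluster 3 and 217 ± 67.1 (n = 8) in cluster 9, against 1175 ± 412 (n = 8) in erythroid/MEP-like cells. Prtn3 (10.1%), Nkg7 (12.8%), Srgn (13.9%) and Ms4a3 (14.3%) were above that band too and Ctsg (4.33%) was below it, while Serpinb1a (103%) and Igsf6 (106%) were far above. That band is from all barcodes of a pool. Among the cells given to a mouse, which the tests use, erythroid/MEP-like cells held more, from 11.2% (Ctsg) to 18.4% (Serpinb1a) of the GMP-like level of the same mouse (means over 8 mice). Neutrophil-like cells there held 10.9% for Mpo, 12.3% for Elane, 13.5% for Prtn3, 14.5% for Nkg7 and 17% for Ms4a3 (9 mice). None of these was above the erythroid/MEP-like range over the 10 genes, while Srgn (22.0%), Serpinb1a (102%) and Igsf6 (108%) were. Gene by gene, the erythroid/MEP-like mean was higher for Mpo (15.3%). It was lower for Elane (11.5%), Prtn3 (11.8%), Nkg7 (11.7%) and Ms4a3 (12.8%), within the spread between mice. Over all barcodes that passed the filters, thinned to 1500 UMIs, 42.8% of neutrophil-like cells had an Mpo UMI, against 33.1% of erythroid/MEP-like and 99.8% of GMP-like cells. Before thinning these shares were 75.4%, 91.8% and 100%, at median depths of 4919, 18654.5 and 12171 UMIs, and 1756, 18 and 266 shallower cells were left out.

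The guide itself differed between groups among cells given to a mouse. In erythroid/MEP-like cells Prtn3 was at 1040.2 ± 313 CPM in NTB mice (n = 3), 2543 ± 552 in vehicle mice (n = 2) and 1702 ± 569 in BRQ mice (n = 3). Cst7 was at 19.2 ± 4.25, 43.4 ± 4.34 and 57.4 ± 25.4 CPM in the same mice. The level of cluster 6 was below that of erythroid/MEP-like cells for Elane (250.0 against 1175 CPM over all mice), Prtn3 (912 against 1664) and Ms4a3 (72.9 against 273). Its Mpo level (932 against 916) was near it. In cluster 6, therefore, none of these 4 genes stood clearly above that guide. The part of free RNA in their levels there was not tested.

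GMP-like cells of vehicle mice carried less Mpo and more Ms4a3 than those of NTB mice, and those of BRQ mice had less Mpo and more Cst7 than those of vehicle or NTB mice. Mpo was at 8554, 8743 and 8198 CPM in the NTB mice of pools 1 to 3, at 5964, 6459 and 6133 in the vehicle mice and at 4783, 5721 and 4411 in the BRQ mice. The 3 groups did not overlap. The log2 fold change was -0.42 (SE 0.12, adjusted p = 0.014) for vehicle against NTB, -0.47 (SE 0.12, adjusted p = 0.0102) for BRQ against vehicle and -0.89 (SE 0.12, adjusted p = 8.07e-05) for BRQ against NTB. These p-values, like all below unless another tool is named, are from edgeR's quasi-likelihood test with Benjamini-Hochberg adjustment over all genes tested. The comparisons share mice and are not independent of each other.

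In the fit by group alone, Prtn3 was the only serine protease gene called, and no test compared these genes with Mpo. Prtn3 was at 13943, 13792 and 11842 CPM in NTB mice, 16695, 16545 and 15220.4 in vehicle mice and 14192, 14763 and 11439 in BRQ mice. The vehicle mice stood above all others. Prtn3 fell by 0.42 on the log2 scale (SE 0.14, adjusted p = 0.0425) with BRQ against vehicle, while its difference of 0.33 (SE 0.14, adjusted p = 0.0866) between vehicle and NTB did not pass. Elane, its neighbour on the chromosome, was at 12929.9, 10982 and 10494 CPM in NTB mice, 10246, 8936 and 8419 in vehicle mice and 10854, 11994 and 9211 in BRQ mice. In each pool the NTB mouse lay above the vehicle mouse. On these CPM the NTB and vehicle mice did not overlap, but on the TMM-scaled values that were tested they did, and no Elane comparison passed (log2 fold changes -0.28, 0.06 and -0.23). With the pool as a replicate block Elane was called for vehicle against NTB (-0.28, adjusted p = 0.00798) and for BRQ against NTB (-0.23, adjusted p = 0.0435). Ctsg differed by 0.52 (SE 0.20, adjusted p = 0.0831) between vehicle and NTB, which did not pass either.

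Cst7, the cathepsin inhibitor gene, was at 294, 269 and 278 CPM in NTB mice, 266, 267 and 252 in vehicle mice and 364, 365 and 397 in BRQ mice. All BRQ mice lay above all others, with log2 fold changes of 0.35 (SE 0.08, adjusted p = 0.0053) against vehicle and 0.30 (SE 0.08, adjusted p = 0.0228) against NTB. Ms4a3 was at 1889, 1696 and 1581 CPM in NTB mice, 2432, 2250.1 and 2080.4 in vehicle mice and 2389, 2236 and 2209.9 in BRQ mice. It rose by 0.43 (SE 0.11, adjusted p = 0.00869) in vehicle against NTB, and the BRQ against NTB difference was 0.28 (SE 0.11, adjusted p = 0.117). Serpinb1a, Nkg7 and Igsf6 had log2 differences between -0.19 and 0.05 in the 3 comparisons, none of which passed.

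In all, 2 of the 10 genes were called in GMP-like cells for vehicle against NTB, 3 for BRQ against vehicle and 2 for BRQ against NTB. Among all genes tested, 22.1%, 13.2% and 10.5% were called. The filter on 500 to 7500 detected genes mattered: the study words these limits as transcripts, and with the limits set on UMIs, which left fewer cells, no granule gene was called in GMP-like cells in any of the 3 comparisons, where 0.36%, 0% and 0.21% of the 6671 genes tested were. With the pool as a replicate block, 6, 4 and 6 were called, where 28.1%, 22% and 19.6% of all genes were, among them, beside Elane, Ctsg with 0.55 (adjusted p = 3.89e-07), Prtn3 with 0.34 (adjusted p = 0.00104) and Srgn with 0.28 (adjusted p = 0.00277) in vehicle against NTB. The block also added Srgn (-0.23, adjusted p = 0.0131) for BRQ against vehicle, and Ctsg (0.37, adjusted p = 0.000326), Ms4a3 (0.28, adjusted p = 0.00148) and Nkg7 (-0.19, adjusted p = 0.0396) for BRQ against NTB. The 10 monocyte/MDP markers summed to 199.9 to 257 CPM in GMP-like cells of NTB mice, 117 to 119.9 in vehicle mice and 222 to 272 in BRQ mice, led by Ly6c2 and F13a1, while the defining Irf8 was at 3.20 to 5.78 CPM and Csf1r at 2.05 to 4.78 CPM over the 9 mice. Their part in the results was not tested. Neutrophil markers there summed to 28341 to 29973 CPM in NTB, 23900 to 27415 in vehicle and 18906.5 to 27400 in BRQ mice. GMP markers summed to 2320 to 2454, 2084 to 2246 and 2355 to 2574 CPM in the same order. HSC/MPP markers summed to 98.2 to 119, 102 to 149 and 141 to 218 CPM. The part of these shifts was not tested either. The make-up of the class differed between groups. Cluster 0 held 54.5% to 58.8% of the GMP-like cells of NTB mice, 38.2% to 41.2% in vehicle mice and 10.5% to 42.5% in BRQ mice, and cluster 1 held 36.9% to 40.0% in NTB, 50.0% to 56.7% in vehicle and 27.2% to 49.9% in BRQ mice. In the BRQ mouse of pool 3, 62.3% of GMP-like cells were in cluster 7, against 2.13% to 11.8% in the other mice. Without it Prtn3 was no longer called for BRQ against vehicle (-0.28, adjusted p = 0.0997), and Mpo and Cst7 stayed called in both BRQ comparisons. Of the 9 mice, leaving out any 1 kept Mpo called for BRQ against NTB (-1.02 to -0.77). The Mpo call for vehicle against NTB was lost without NTB replicate 2 or any 1 vehicle mouse (highest adjusted p = 0.0821), and that for BRQ against vehicle without vehicle replicate 2 (0.0553). The Ms4a3 call was lost without NTB replicate 3 (0.061) or vehicle replicate 1 (0.0586). The Prtn3 call was also lost without NTB replicate 2, vehicle replicate 1 or 2 or BRQ replicate 1 (highest 0.164). The Cst7 call was lost against vehicle without vehicle replicate 3 (0.0569) and against NTB without NTB replicate 2 or 3 or BRQ replicate 1 (highest 0.133).

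**Figure D2:**
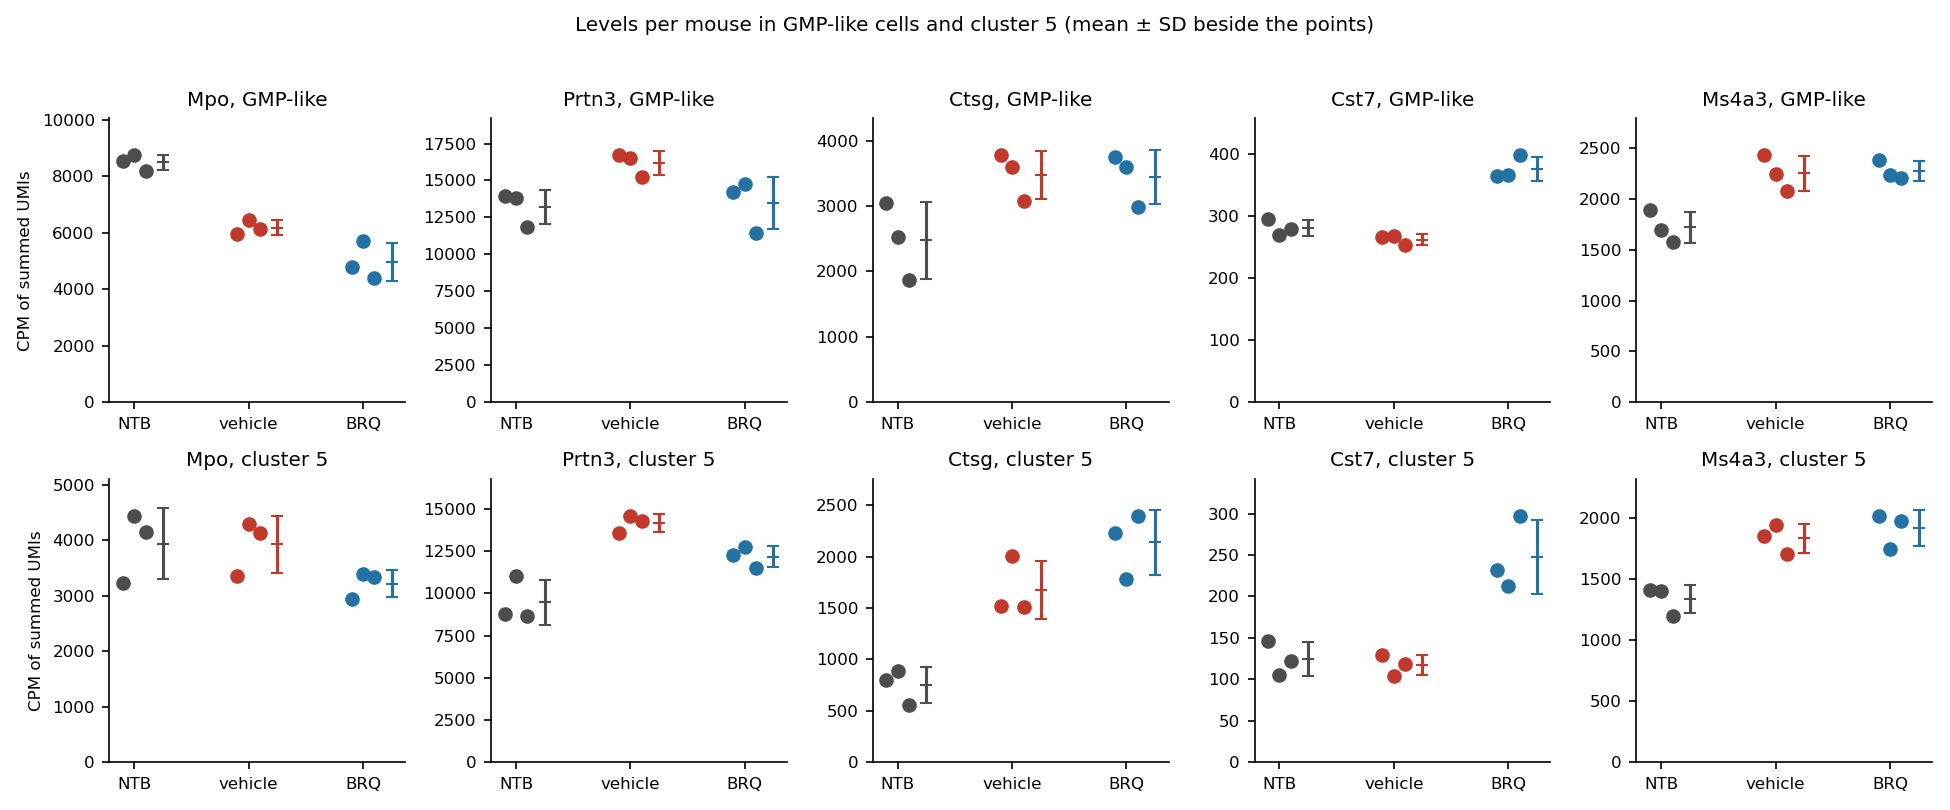
CPM of summed UMIs of 5 genes in GMP-like cells (top) and cluster 5 (bottom), 1 point per mouse, with the mean and SD of the 3 mice of a group beside the points. In GMP-like cells Mpo steps down from 8498 (NTB) to 6185 (vehicle) and 4972 CPM (BRQ), while Cst7 is highest in the BRQ mice of both rows.

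Cluster 5, with GMP and neutrophil marker scores alike, held more Ctsg and Ms4a3 in tumor-bearing than in NTB mice, and more Cst7 and less Mpo in BRQ than in vehicle mice. Ctsg was at 803, 890.1 and 557 CPM in NTB mice, 1519, 2003 and 1514 in vehicle mice and 2232, 1780.5 and 2397 in BRQ mice, and the NTB mice lay below all others. The log2 fold changes were 1.21 (SE 0.17, adjusted p = 0.000569) for vehicle and 1.39 (SE 0.17, adjusted p = 0.000214) for BRQ against NTB. With the pool as a replicate block the former was 1.22 and no longer called (adjusted p = 0.0532), while Srgn was called for BRQ against vehicle (-0.25, adjusted p = 0.0273) and Prtn3 for BRQ against NTB (0.24, adjusted p = 0.00931). Prtn3 was at 8750.0, 11009 and 8635 CPM in NTB mice, 13589.5, 14591 and 14289.8 in vehicle mice and 12288, 12723 and 11477 in BRQ mice. It rose by 0.63 (SE 0.11, adjusted p = 4.84e-06) in vehicle against NTB and fell by 0.39 (SE 0.10, adjusted p = 0.0129) in BRQ against vehicle. Elane showed log2 fold changes of 0.02, 0.02 and 0.04 there, with SE 0.10 each, and none was called.

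Mpo in cluster 5 fell by 0.45 (SE 0.11, adjusted p = 0.00241) in BRQ against vehicle and by 0.41 (SE 0.10, adjusted p = 0.00486) against NTB. Between vehicle and NTB its difference was 0.04 (SE 0.11, adjusted p = 0.862). Cst7 was at 146, 106 and 122 CPM in NTB mice, 129, 104 and 118 in vehicle mice and 231, 213 and 297 in BRQ mice, which stood above all others. It rose by 0.81 (SE 0.13, adjusted p = 2.65e-06) against vehicle and 0.92 (SE 0.13, adjusted p = 2.91e-08) against NTB. Ms4a3 rose by 0.51 (SE 0.11, adjusted p = 0.000326) in vehicle and 0.40 (SE 0.11, adjusted p = 0.00729) in BRQ against NTB, and Srgn by 0.58 (SE 0.11, adjusted p = 2.7e-05) and 0.33 (SE 0.10, adjusted p = 0.0339).

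Of the 10 genes, 4, 3 and 5 were called in cluster 5 for vehicle against NTB, BRQ against vehicle and BRQ against NTB, where 8.83%, 4.15% and 7.5% of all genes were. The 4 calls of vehicle against NTB held without any 1 mouse, as did those of Cst7 and of Ctsg against NTB. The Mpo call was lost without BRQ replicate 1 (adjusted p = 0.0783 against vehicle, 0.0641 against NTB) and, against NTB, without NTB replicate 2 (0.118). Prtn3 was lost for BRQ against vehicle without vehicle replicate 1 or 2 or BRQ replicate 1 or 3 (highest 0.0897). For BRQ against NTB, Srgn was lost without NTB replicate 2 or 3 or BRQ replicate 1 or 3 (highest 0.202), and Ms4a3 without NTB replicate 3 or BRQ replicate 1 (highest 0.141). The vehicle mouse of pool 2 had 19 cells in this cluster. Markers moved with these differences. The 14 neutrophil markers summed to 188836 to 216789 CPM in NTB mice, 166040 to 179568 in vehicle mice and 103454 to 149168 in BRQ mice, without overlap, led by S100a9 and S100a8. The 14 secondary and tertiary granule genes summed to 32836 to 43979 CPM in NTB mice, 22830.2 to 29174 in vehicle mice and 11207 to 26441 in BRQ mice. The 8 GMP markers summed to 1269 to 1373 CPM in NTB mice, 1263 to 1439 in vehicle mice and 1606 to 1819.8 in BRQ mice. The part of this shift in the results for cluster 5 was not tested.

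**Figure D3:**
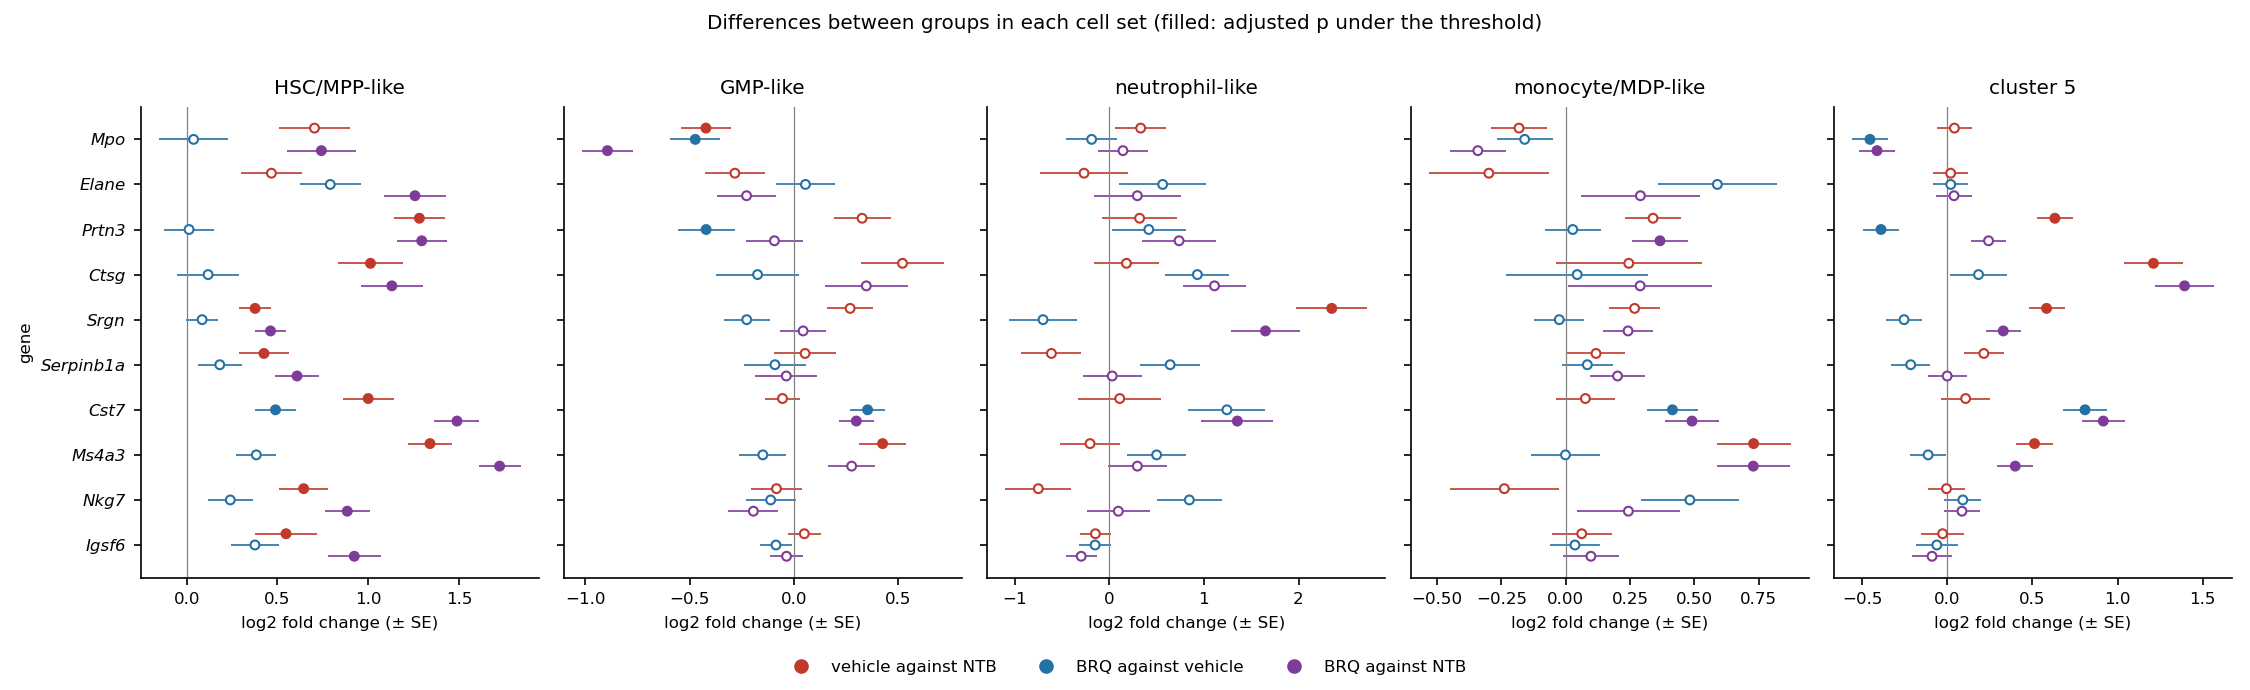
Log2 fold change (x axis, with SE as bars) of each gene in 5 cell sets and 3 comparisons. Filled points passed the threshold of 0.05 on the adjusted p; in GMP-like cells Mpo is below 0 in all 3 comparisons, and Cst7 is filled for BRQ against vehicle in every panel but the neutrophil-like one, where it is 1.24 and open.

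In HSC/MPP-like cells all 10 genes were higher in vehicle and in BRQ than in NTB mice, with 8 called for vehicle and 10 for BRQ. The make-up of the class differed between the same mice. Prtn3 was at 1439, 1992 and 2291 CPM in NTB mice, 4237, 5102 and 4262 in vehicle mice and 4142, 5074 and 4768 in BRQ mice. The NTB mice lay below all others, with log2 fold changes of 1.28 (SE 0.14, adjusted p = 5.21e-05) for vehicle and 1.29 (SE 0.14, adjusted p = 2.59e-05) for BRQ. Ms4a3 rose by 1.34 (SE 0.12, adjusted p = 1.93e-08) and 1.72 (SE 0.12, adjusted p = 9.38e-11), and Cst7 by 1.00 (SE 0.14, adjusted p = 1.28e-06) and 1.49 (SE 0.12, adjusted p = 7.9e-12). Mpo was at 1557, 2521 and 2563 CPM in NTB mice, 3235, 3667 and 3646 in vehicle mice and 3377, 4279.8 and 3384 in BRQ mice. Its log2 fold changes were 0.70 (SE 0.19, adjusted p = 0.051) and 0.74 (SE 0.19, adjusted p = 0.0299).

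Marker sums moved with the groups in this class. Its own HSC/MPP markers summed to 2205 to 2277 CPM in NTB, 2080 to 2295 in vehicle and 1445 to 1947 in BRQ mice. B cell markers summed to 157 to 217, 58.3 to 127 and 75.0 to 117 CPM in the same order. The 8 GMP markers, led by Alas1, summed to 525 to 728 CPM in NTB, 829 to 915 in vehicle and 897 to 1234 in BRQ mice. The 10 erythroid/MEP markers, mostly Car2, summed to 206 to 289.8, 58.3 to 98.6 and 69.7 to 114 CPM, with the defining Gata1 at 11.5 CPM or less and Klf1 at 3.89 or less in every mouse. The 10 dendritic cell markers, mostly Tcf4 and Flt3, summed to 446 to 467, 272 to 336 and 285 to 340.1 CPM, with Siglech at 14.6 CPM or less and Xcr1 at 0. The part of these shifts in the results was not tested. The counts of called genes were thus 8, 1 and 10 for vehicle against NTB, BRQ against vehicle and BRQ against NTB, where 16.7%, 0.397% and 24.5% of all genes were called. The median log2 fold change of the 10 genes was 0.67 for vehicle and 1.03 for BRQ against NTB, and that of all genes -0.03 and -0.02. The single gene called for BRQ against vehicle was Cst7, with 0.49 (SE 0.11, adjusted p = 0.026). That call was lost without any 1 vehicle mouse or without BRQ replicate 2 or 3 (highest adjusted p = 0.35). In vehicle against NTB, Serpinb1a was lost without any 1 NTB mouse or vehicle replicate 1 or 2 (highest 0.469), Igsf6 without NTB replicate 2 or vehicle replicate 1 or 3 (highest 0.0868) and Nkg7 without vehicle replicate 1 (0.0543), so that 5 were called without vehicle replicate 1, where 8.87% of all genes were. Mpo was lost for BRQ against NTB without vehicle replicate 2 or 3 or BRQ replicate 1 or 3 (highest 0.0737). With the pool as a replicate block Mpo was called for vehicle against NTB (0.73, adjusted p = 0.0452) and Nkg7 was not (0.67, adjusted p = 0.0909).

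Cluster 11, in which the genes were high, made up 16.3% to 19.9% of the HSC/MPP-like cells of NTB mice, 30.8%, 41.2% and 35.1% in vehicle mice and 40.6%, 50.9% and 43.1% in BRQ mice. Within cluster 11 alone, Mpo was at 5793 ± 940.5 CPM in NTB (n = 3), 5447 ± 107 in vehicle (n = 2) and 5160.2 ± 468 in BRQ mice (n = 3). Its log2 fold changes against NTB were -0.11 (adjusted p = 0.654) and -0.27 (adjusted p = 0.115). There 2 genes were called for vehicle against NTB, Prtn3 (0.38, adjusted p = 0.0173) and Ms4a3 (0.52, adjusted p = 0.00424). For BRQ against NTB they were Ms4a3 (0.57, adjusted p = 0.000574) and Cst7 (0.45, adjusted p = 0.0493), and none was called for BRQ against vehicle. Of all genes 4.55%, 0.651% and 3.43% were called in cluster 11 alone. Within cluster 6 alone 1, 0 and 0 were called, the former Ctsg (0.86, adjusted p = 0.000108), where 1.07%, 0.0105% and 1.08% of all genes were. With equal cells of every mouse, which left 10 cells each of cluster 6, none was called in any of the 3 comparisons, where 0.856%, 0% and 0.856% of all genes were. When the 10 genes were kept among the genes used for clustering, 1, 0 and 2 were called, where 3.4%, 0% and 5.35% of all genes were. With the limits set on UMIs there were 0, 0 and 2, where 0.213%, 0.0285% and 0.285% of all genes were called. With tag ratios 4 were called for vehicle against NTB and 0 for BRQ against vehicle, where 16% and 0.03% of all genes were. The share of cluster 11 and the erythroid/MEP-like levels given above were both higher in vehicle and BRQ than in NTB mice. The part of free RNA in the result was not tested.

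**Figure D4:**
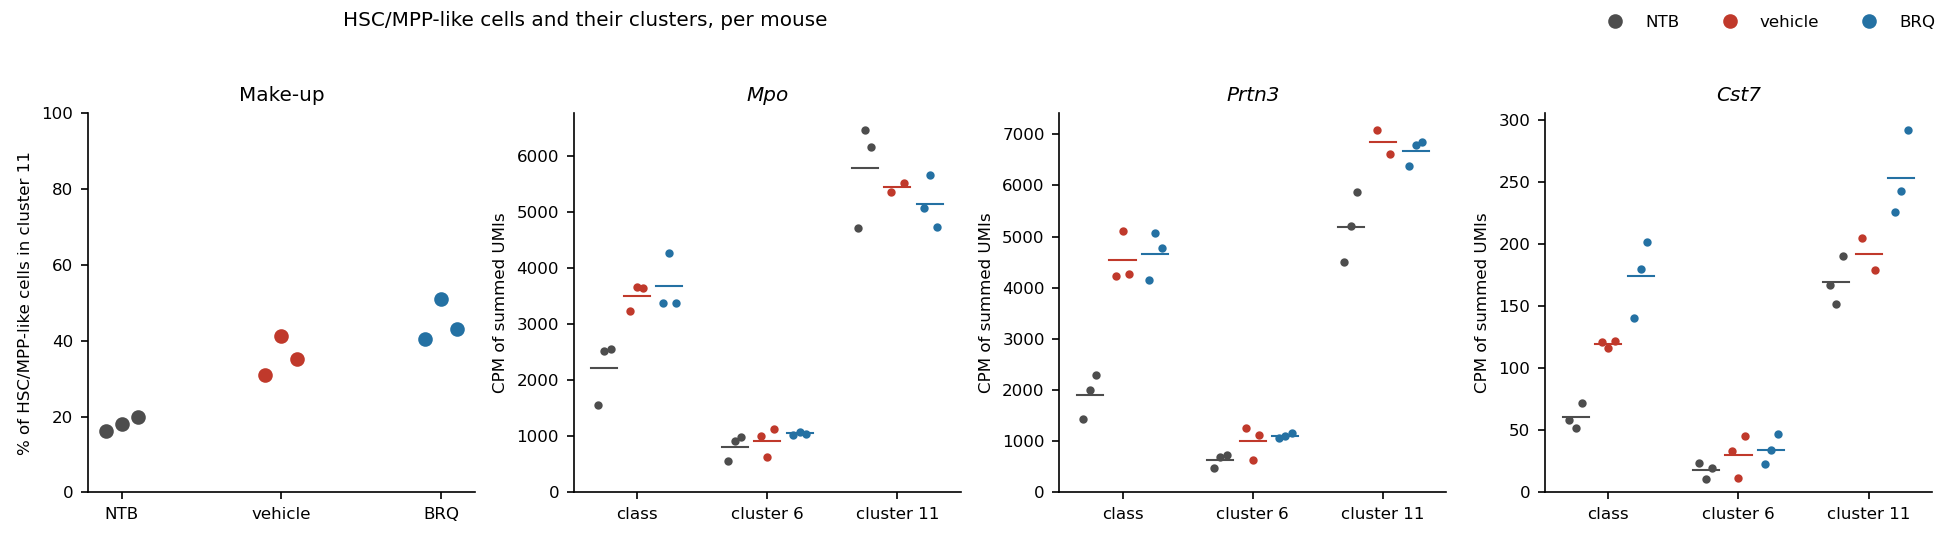
Left, percent of the HSC/MPP-like cells of each mouse that were in cluster 11. Right, CPM of summed UMIs of Mpo, Prtn3 and Cst7 in the class and in clusters 6 and 11, with 1 point per mouse and bars at group means; Mpo in cluster 11 has group means of 5793, 5447 and 5160.2 CPM although the class means are 2214, 3516 and 3680.3.

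Monocyte/MDP-like cells held 86.3% of the Mpo level of GMP-like cells of the same pool, 50.9% of that of Prtn3 and 21.8% of that of Nkg7. Ms4a3 was at 509, 361 and 382 CPM in NTB mice, 745, 701 and 590.2 in vehicle mice and 736, 611 and 854 in BRQ mice. The NTB mice lay below all others, with log2 fold changes of 0.73 (SE 0.14, adjusted p = 0.00894) for vehicle and 0.73 (SE 0.14, adjusted p = 0.00737) for BRQ. Cst7 was at 152, 138 and 121 CPM in NTB mice, 149, 142 and 131 in vehicle mice and 197, 177 and 236 in BRQ mice. It rose by 0.41 (SE 0.10, adjusted p = 0.00645) in BRQ against vehicle and by 0.49 (SE 0.11, adjusted p = 0.00366) against NTB. Prtn3 rose by 0.37 (SE 0.11, adjusted p = 0.0485) in BRQ against NTB. Mpo had log2 differences of -0.18, -0.16 and -0.34 in the 3 comparisons, and none passed.

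In these cells 1, 1 and 3 of the 10 genes were called, where 4.65%, 6.24% and 3.53% of all genes were. With the pool as a replicate block there were 4, 3 and 6, where 6.09%, 9.17% and 5.59% of all genes were called, among them Mpo for BRQ against NTB (-0.35, adjusted p = 0.000145) and Elane for BRQ against vehicle (0.62, adjusted p = 0.000472). The other added calls were Prtn3 (0.34), Ctsg (0.24) and Srgn (0.26) for vehicle against NTB, Nkg7 (0.53) for BRQ against vehicle, and Ctsg (0.32) and Srgn (0.24) for BRQ against NTB. Marker sums moved with the groups. The 10 HSC/MPP markers summed to 265 to 381 CPM in NTB, 431 to 657 in vehicle and 464 to 708 in BRQ mice, with Ifitm1 at 23.5 to 68.6, 228 to 417 and 153 to 379 CPM and Hlf at 15.8 or less. The 8 B cell markers, mostly Ighm, summed to 218 to 295, 184 to 214 and 165 to 186 CPM, with Ms4a1 at 0. The 10 monocyte/MDP markers summed to 2370.3 to 3189 CPM in NTB, 2024 to 2442 in vehicle and 2560.4 to 2920.5 in BRQ mice, with Irf8 at 629 to 772, 471 to 584 and 614 to 715 CPM. Their part in the results was not tested. Without NTB replicate 3, Ms4a3 (adjusted p = 0.0855 for vehicle, 0.0619 for BRQ) and Cst7 against NTB (0.0782) were lost. Cst7 against vehicle was lost without vehicle replicate 3 (0.0781) or BRQ replicate 3 (0.0655). Prtn3 was lost without NTB replicate 2 or 3, vehicle replicate 1 or 2 or BRQ replicate 1 or 2 (highest 0.337).

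In neutrophil-like cells the share of UMIs from Srgn rose in vehicle and in BRQ against NTB mice. Cst7 was higher in BRQ than in NTB mice there and in erythroid/MEP-like cells alike. Srgn was at 387, 207 and 157 CPM in NTB mice, 860.3, 1473 and 1737 in vehicle mice and 632, 667 and 1267 in BRQ mice. The NTB mice lay below all others, with log2 fold changes of 2.35 (SE 0.38, adjusted p = 0.00117) for vehicle and 1.65 (SE 0.37, adjusted p = 0.0162) for BRQ. Cluster 3, in which Srgn was high, made up 8.33%, 8.64% and 5.6% of the neutrophil-like cells of NTB mice, 65.5%, 86.0% and 89.7% in vehicle mice and 51.0%, 45.1% and 77.8% in BRQ mice. The 14 secondary and tertiary granule genes summed to 109856 to 120461 CPM in NTB mice, 50183 to 82411 in vehicle mice and 57313 to 85764 in BRQ mice. The 10 HSC/MPP markers summed to 46.2 to 174 CPM in NTB mice, 1978 to 6057 in vehicle mice and 573 to 1827 in BRQ mice, nearly all of it from Ifitm1 (1954 to 6019 CPM in vehicle mice), while Hlf was at 20.1 CPM or less and Mecom at 0.614 or less in every mouse. Cells of the class had a median of 5847 to 6651 UMIs in NTB, 1577 to 2056 in vehicle and 2673.5 to 4056.5 in BRQ mice. CPM does not tell more Srgn per cell from less other RNA. The part of depth and of these shifts in the Srgn result was not tested. In cluster 2 alone the Srgn differences were 0.73 (adjusted p = 0.746) and 1.70 (adjusted p = 0.158). Cst7 rose by 1.35 (SE 0.38, adjusted p = 0.0456) in BRQ against NTB, from 22.5 ± 16.4 to 51.3 ± 10.1 CPM (n = 3 each). Erythroid/MEP-like Cst7 went from 19.2 to 57.4 CPM in the same groups, as given above, and the part of free RNA in this Cst7 difference was not tested.

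Called genes numbered 1, 0 and 2 in neutrophil-like cells, where 20.3%, 0% and 8.15% of all genes were called. For BRQ against vehicle edgeR called none of the 8517 genes tested, and DESeq2 called 10 genes in all and none of the granule genes. With the pool as a replicate block 3, 1 and 4 were called, where 29.6%, 0.446% and 16.8% of all genes were, the added ones being Serpinb1a (-0.70, adjusted p = 0.0141) and Nkg7 (-0.80, adjusted p = 0.00559) for vehicle against NTB, Nkg7 (0.94, adjusted p = 0.0469) for BRQ against vehicle, and Prtn3 (0.92, adjusted p = 0.0142) and Ctsg (1.22, adjusted p = 0.0073) for BRQ against NTB. The Srgn call for vehicle held without any 1 mouse, with 4 genes called without vehicle replicate 1, where 33.3% of all genes were. For BRQ against NTB none was called without NTB replicate 2 or 3 (Srgn highest adjusted p = 0.108), where 3.48% and 1.19% of all genes were, and Cst7 was also lost without vehicle replicate 2 or any 1 BRQ mouse (highest 0.302). Without vehicle replicate 1, 3 genes were called for BRQ against vehicle, where 7.8% of all genes were.

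The effect in neutrophil-like cells was also tested against that in GMP-like cells of the same mice. It differed for 4, 1 and 3 of the 10 genes for vehicle against NTB, BRQ against vehicle and BRQ against NTB, where it differed for 21.8%, 1.14% and 5% of all genes tested. Srgn for vehicle against NTB had a difference of 2.15 on the log2 scale (SE 0.35, adjusted p = 0.00056), and its call held without any 1 mouse.

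Side by side, Cst7 was called for BRQ against vehicle in HSC/MPP-like (0.49), GMP-like (0.35) and monocyte/MDP-like cells (0.41) and in cluster 5 (0.81). Ms4a3 was called for vehicle against NTB in the same 4 cell sets (1.34, 0.43, 0.73 and 0.51). These sets hold cells of the same 9 mice and share free RNA, so they are not independent. Elane was called in 1 of the 15 comparisons, that of HSC/MPP-like cells for BRQ against NTB (1.26, SE 0.17, adjusted p = 0.000644), and in 4 of the 15 with the pool as a replicate block.

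Other genes of the granule program were described from 4 lists. Genes of these lists that rose or fell below are those called higher or lower. The shares of all genes called in GMP-like cells were those given above, 22.1%, 13.2% and 10.5% for vehicle against NTB, BRQ against vehicle and BRQ against NTB. Of 28 other azurophil granule genes, 27 were tested in GMP-like cells; 3 rose and 8 fell in vehicle against NTB, where the list's median was -0.13 and that of all genes -0.03. Lyz2, a lysozyme gene, fell by 1.02 (SE 0.13, adjusted p = 2.49e-05) and Man2b1, a lysosomal mannosidase gene, by 0.67 (SE 0.12, adjusted p = 0.000617). In BRQ against vehicle 6 rose and 2 fell, with Lyz2 at 0.65 (SE 0.12, adjusted p = 0.00131) and Psap, which encodes prosaposin, at 0.50 (SE 0.10, adjusted p = 0.00218). In BRQ against NTB 2 rose, Ctsz (0.40) and Ctsd (0.32), both cathepsin genes.

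Of 10 transcription factors of the promyelocyte stage, 9 were tested in GMP-like cells. In vehicle against NTB Cebpb rose (0.42, adjusted p = 0.00184) and Cebpa (-0.30, adjusted p = 0.0428) and Runx1 (-0.28, adjusted p = 0.0408) fell. In BRQ against vehicle Myb (0.45, adjusted p = 0.000791) and Runx1 (0.30, adjusted p = 0.0227) rose. Of 8 other protease inhibitors 5 were tested. In vehicle against NTB Cst3 fell by 0.45 (adjusted p = 0.00623), Slpi fell by 0.27 (adjusted p = 0.0286) and Cstb rose by 0.37 (adjusted p = 0.00998). In BRQ against vehicle 3 rose: Serpinb2 (1.87, adjusted p = 0.000102), Slpi (0.60, adjusted p = 3.34e-05), which encodes an elastase inhibitor, and Cst3 (0.34, adjusted p = 0.0452), a cystatin gene. Of 14 secondary and tertiary granule genes, 3 rose in that comparison: Chil3 (1.04), Cybb (0.45) and Hp (0.28).

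In HSC/MPP-like cells 6 of the 9 tested transcription factors rose and 1 fell in BRQ against NTB, where 24.5% of all genes were called, and the share of cluster 11 in the class differed between these mice as given above. Among them were Cebpe (1.09, adjusted p = 1.16e-06) and Gfi1 (0.83, adjusted p = 1.49e-05), which act in granulocyte commitment, and Irf8, a monocyte and dendritic cell factor, which fell by 0.57 (adjusted p = 0.0021). In cluster 5, where 8 were tested, 3 were called in vehicle against NTB, where 8.83% of all genes were: Cebpa fell by 1.04 (adjusted p = 0.0039), Cebpb rose by 0.57 (adjusted p = 0.00119) and Myb fell by 0.44 (adjusted p = 0.0148). Myb rose by 1.02 (adjusted p = 3.4e-10) in BRQ against vehicle and by 0.58 (adjusted p = 0.000173) against NTB. Of the 26 other azurophil granule genes tested in cluster 5, 1 rose and 1 fell in each BRQ comparison, where 4.15% (against vehicle) and 7.5% (against NTB) of all genes were called. Ctsc, the cathepsin that activates the granule serine proteases, rose by 1.33 (adjusted p = 0.0319) in BRQ against vehicle and by 1.40 (adjusted p = 0.012) against NTB. Cd63, a tetraspanin gene of the granule membrane, fell by 0.50 (adjusted p = 0.00128) and 0.71 on the log2 scale (adjusted p = 6.87e-07).

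The pattern most like that of the 10 genes over 54 sums of a class and a mouse, from 9 classes, was that of Prss57, a serine protease gene of the same granules (Pearson r = 0.955). Next came Ap3s1 (0.927), Dbi (0.926), Alas1 (0.919), Tmed3 (0.908), B4galt6 (0.907), Atp6ap2 (0.901), Med21 (0.884), Tmx4 (0.883) and Plac8 (0.883). The sums share libraries and free RNA, and the correlation is a description.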

How the data were processed

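The authors deposited raw UMI counts as 1 matrix for each pool, with genes and hashtags as features (10x 3' kit), made with Cell Ranger 6.0.0 on mm10 per the submitters' processing notes. Barcodes with over 15% mitochondrial UMIs, fewer than 500 or more than 7500 genes were removed. The study's own wording of this range is in transcripts, so a range on UMIs was an alternative. Hashtags were called per pool with HTODemux (Seurat 5.3.0, quantile 0.99). Cells scaled to 10000 UMIs were clustered (scanpy 1.11.5, leidenalg 0.10.2; 2000 variable genes less the 10 genes, 30 components, 20 neighbours, resolution 0.8) and named from 12 marker lists. Scrublet marked doublets, left out in an alternative; a cluster with over 50% marked stayed unnamed.

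Counts summed per mouse (at least 10 cells) were tested with edgeR 4.0.16 (TMM, filterByExpr, quasi-likelihood, two-sided) over all 9 mice, called at adjusted p under 0.05. CPM per mouse are not TMM scaled. DESeq2 1.42.0 was an alternative. The code was tested on simulated data. Cluster 5 and single clusters as cell sets were added after seeing the data. The genes and lists were chosen with earlier results of these data known. Genes named are the 10, up to 4 called genes per list and comparison, and the 10 most alike (at least 10 CPM in 1 sum, log2(CPM + 1), sums of at least 20 cells). The tests set group differences against the spread between mice, which without the pool block also holds differences between pools. The study picked GMPs by scaled Ms4a3, one of the 10. An alternative here used another cut, ln(1 + Ms4a3 UMIs per 10000) over 3 (3916 singlets, 3321 of them GMP-like), counted over the other genes.

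Pools held 128035770, 100700982 and 135564079 gene UMIs; HTODemux called 5476, 5971 and 4732 barcodes negative and 1088, 711 and 2516 doublets. The pairing of mice by pool is from the labels; deviations from group means correlated within pools with a median r of 0.142 in GMP-like and 0.0308 in HSC/MPP-like cells.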

Additional observations from a re-analysis of the deposited data

Results flagged for a closer look

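Effects on 6 of the genes differed between neutrophil-like and GMP-like cells in a test of the difference itself (edgeR's quasi-likelihood test of the interaction, with the mouse as a term; log2 effect in neutrophil-like minus that in GMP-like cells). Of the 10 genes, 4, 1 and 3 were called for vehicle against NTB, BRQ against vehicle and BRQ against NTB, where 21.8%, 1.14% and 5% of all 10044 genes tested were. For vehicle against NTB the difference was 0.83 for Mpo (adjusted p = 0.0335), 2.15 for Srgn (0.00056), -0.76 for Serpinb1a (0.0248) and -0.68 for Ms4a3 (0.049). For BRQ against vehicle it was 1.09 for Nkg7 (adjusted p = 0.0376). For BRQ against NTB it was 1.18 for Mpo (adjusted p = 0.0139), 1.73 for Srgn (0.0082) and 1.18 for Cst7 (0.0354). In neutrophil-like cells Mpo and Cst7 were near the erythroid/MEP-like level. Among cells given to a mouse, Nkg7 (14.5%) and Ms4a3 (17%) were not above the erythroid/MEP-like range over the 10 genes either. The cluster make-up and the UMIs per cell of that class differed between groups. The part of free RNA, make-up and depth in these differences was not tested. Srgn for vehicle against NTB was called without any 1 mouse (1.91 to 2.45). Of the 9 mice left out in turn, 3 ended the call of Srgn for BRQ against NTB and 4 to 7 that of each of the others.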

How the results depend on the processing

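Counts of called genes are given for vehicle against NTB, BRQ against vehicle and BRQ against NTB in that order, where they moved by over 1.5 times. The share of all genes called moved between settings too, as given above for some of them. A count without that share is not a result particular to the 10 genes. In HSC/MPP-like cells (8, 1 and 10) tag ratios in place of HTODemux gave 4 and 0 in the first 2, the limit of 500 to 7500 read as UMIs 0, 0 and 2, clustering with the 10 genes 1, 0 and 2, equal cells per cluster 0, 0 and 0, cluster 6 alone 1, 0 and 0, cluster 11 alone 2, 0 and 2, and no filter on low counts 3 in the second. In GMP-like cells (2, 3 and 2) the UMI limit gave 0, 0 and 0, the pool as replicate block 6 and 6 in the first and the third, no filter 5 and 4 there, DESeq2 4 in the first, clusters 0 and 1 alone 4 and 4 in the first, and clustering with the genes and the Ms4a3 choice 1 each in the third. In neutrophil-like cells (1, 0 and 2) no filter gave 3, 3 and 4, the replicate block 3, 1 and 4, the UMI limit 5 and 1 in the first 2, tag ratios 5, barcodes without Scrublet marks 1 and clustering with the genes 0 in the third, equal cells 0 and 1 in the first and the third, and cluster 2 alone 0 in the first. In monocyte/MDP-like cells (1, 1 and 3) the replicate block gave 4, 3 and 6, DESeq2 and no filter 2 in the first 2, tag ratios and no Scrublet marks 2 in the first, and equal cells 1 in the third. In cluster 5 (4, 3 and 5) the UMI limit gave 1, 0 and 3 and tag ratios 1 in the second. Differences of effect (4, 1 and 3) became 7 and 7 in the second and the third with tag ratios. Without 1 mouse at a time counts ranged from 5 to 10, 0 to 3 and 9 to 10 in HSC/MPP-like, 0 to 5, 1 to 3 and 1 to 3 in GMP-like, 1 to 4, 0 to 3 and 0 to 3 in neutrophil-like and 0 to 3, 0 to 3 and 1 to 3 in monocyte/MDP-like cells, 4 to 5, 1 to 3 and 2 to 5 in cluster 5, and 1 to 5, 0 to 4 and 0 to 5 for differences of effect. Signs turned, none with a call, in HSC/MPP-like cells with equal cells per cluster (Ctsg -0.0105 and Srgn -0.35 for vehicle, Mpo -0.15 and Srgn -0.41 for BRQ against NTB), in cluster 11 alone (Srgn -0.12, Serpinb1a -0.30, Nkg7 -0.11 and Igsf6 -0.29 for vehicle, Mpo -0.27, Srgn -0.16, Serpinb1a -0.0918, Nkg7 -0.0672 and Igsf6 -0.21 for BRQ against NTB), in cluster 6 alone (Cst7 -0.0387, BRQ against vehicle) and with the genes in the clustering (Igsf6 -0.23, vehicle against NTB), and with the UMI limit for Prtn3 in GMP-like cells (0.0132, BRQ against vehicle). Fewer cells entered under equal cells, single clusters and the UMI limit; the other causes were not tested. Of 46 calls, 2 (Ctsg and Cst7 in cluster 5, BRQ against NTB) held in each alternative run there, which did not include equal cells or clustering with the genes, and 658 of 846 repeats kept the call. Of the calls it gave a value for, the UMI limit lost 30 of 39, clustering with the genes 20 of 34, equal cells 14 of 22, cluster 6 alone 18 of 19, cluster 11 alone 15 of 19, tag ratios 11 of 46, DESeq2 5 of 46 and the replicate block 2 of 46. Mean levels in the 4 classes moved by under 1 SD in all 80 repeats. The UMI limit was not run in monocyte/MDP-like cells, where it left 1 mouse in 2 groups. Depth limits HSC/MPP-like cells and cluster 5 of the vehicle mouse of pool 2, with 17 and 19 cells.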
